A study of Mus musculus with 6 samples.

Results

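The liver and red-cell miRNAs found in small extracellular vesicles (sEVs) of cultured mouse islets were miR-122, the leading miRNA of hepatocytes, and miR-451a, miR-144 and miR-486, which red blood cells hold in large amounts. They were chosen by name, as every entry of the deposited table called mmu-miR-122, mmu-miR-451a, mmu-miR-144, mmu-miR-486a or mmu-miR-486b with any arm, and 6 of the 718 listed entries matched. One is the liver member, mmu-miR-122-5p. The other 5 are the red-cell members mmu-miR-451a, mmu-miR-144-3p, mmu-miR-144-5p, mmu-miR-486a-5p and mmu-miR-486b-5p. The entry mmu-miR-122b-3p has a similar name but belongs to a separate gene and was not counted.

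Small RNA was sequenced from sEVs of islets of wild-type mice, labelled C57/B6J, that received normal chow (NCD, nid-sEVs, 3 libraries) or a high-fat diet (HFD, aid-sEVs, 3 libraries). All islets were described as placed in culture without serum before the medium was taken, and sEVs were pelleted by ultracentrifugation. The paper's general culture methods also name sEV-depleted fetal bovine serum for sEV collection. The labels give neither the age or sex of the mice, the length of the diet, nor whether islets of several mice were pooled. They also do not say that libraries of one group came from separate cultures, so p-values measure the spread between these libraries, which may be technical. Levels are given as RPM, reads scaled to the same total in each library. The libraries held between 50534 and 129152 reads in nid-sEVs and between 122266 and 519315 reads in aid-sEVs, and 3 reads, the smallest level taken as shown by the depth, stood for 23.2 to 59.4 RPM in nid-sEVs and 5.78 to 24.5 RPM in aid-sEVs. In nid-sEV replicate 1, 33.4% of the reads belonged to entries that miRBase does not name, against at most 9.45% in any other library. The β cell miRNA miR-375-3p ranked 1 in 5 libraries and 3 in nid-sEV replicate 1.

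Mature miRNAs guide Argonaute proteins to messenger RNAs, mainly through the seed, bases 2 to 8 of the miRNA. Most are cut from a hairpin by Drosha and then Dicer. In erythroid cells, miR-144 and miR-451a are made from one precursor transcript under control of the transcription factor GATA1, and miR-451a is known for skipping Dicer, since Argonaute 2 itself cuts its short hairpin. Both are abundant in red blood cells, as is miR-486, which lies in the gene of the red-cell membrane protein ankyrin 1 and is also abundant in striated muscle. In the liver, miR-122 is the most abundant miRNA and takes part in lipid metabolism. Because these miRNAs are scarce in most other cells, they are often read as marks of red blood cells or of hepatocytes in plasma and vesicle samples.

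The sequences of 3 members, the miR-144 and miR-451a pair, are those that the RefSeq table used here held, and they show how these neighbours differ. They are of build GRCm38.p6, and capitals mark the seed.
mmu-miR-451a: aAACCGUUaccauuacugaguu
mmu-miR-144-3p: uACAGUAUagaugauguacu
mmu-miR-144-5p: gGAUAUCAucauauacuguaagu
mmu-miR-101a-3p: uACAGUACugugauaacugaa
None of the 3 shared its seed with another mouse miRNA of the RefSeq table. With bases 2 to 7 alone, miR-144-3p matched miR-101a-3p, a miRNA abundant in liver and many other tissues, while miR-451a and miR-144-5p matched none.

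The hairpins of this pair lie on the plus strand of chromosome 11 of GRCm38, Mir144 from 78073005 to 78073070 and Mir451a from 78073170 to 78073241, with 99 bases between them. No host gene is annotated over either. Their RefSeq hairpins are shown with the mature arms in capitals, as the arms differ in where they lie.
Mir144: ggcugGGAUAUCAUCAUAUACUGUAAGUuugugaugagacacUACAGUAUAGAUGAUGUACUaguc
Mir451a: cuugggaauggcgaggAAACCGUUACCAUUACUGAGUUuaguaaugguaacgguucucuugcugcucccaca
The arms of miR-144 take bases 6 to 28 and 43 to 62 of its 66-base hairpin, on either side of the loop. In the 72-base hairpin of miR-451a the single mature miRNA takes bases 17 to 38. The hairpin that gives miR-486a lies on chromosome 8 from 23142555 to 23142682 on the plus strand, inside Ank1, which runs from 22974844 to 23150497 on the same strand. All 15 Ank1 transcripts around it carry an intron there, and no Ank1 exon overlapped it in the GENCODE annotation. The stretch also lies inside Gm15816, a gene on the minus strand. The hairpin of miR-486b, annotated under its older name Mir3107, lies within the same stretch on the minus strand, from 23142573 to 23142662. The 5p arms of both copies are known to be alike in sequence, so the division of reads between miR-486a-5p and miR-486b-5p is uncertain. Calls, counts and distances of either copy alone depend on that division, whereas the summed reads do not.

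The mean of each of the 6 members was lower in aid-sEVs than in nid-sEVs, and the change was largest for miR-122-5p. The levels of miR-144-3p, miR-144-5p and miR-486b-5p overlapped between the groups. Together the 6 members took 1.45%, 0.764% and 0.467% of the reads in nid-sEV replicates 1, 2 and 3, and 0.158%, 0.0894% and 0.0752% in the aid-sEV replicates. All 3 nid-sEV libraries lay above all 3 aid-sEV libraries in this sum. Without the miR-486 copies, the sums of the red-cell members overlapped between the groups. A call needed a log2 fold change beyond 1 in either direction together with an adjusted p below 0.05 by limma. By this rule 2 of the 6 members fell in aid-sEVs, miR-122-5p and miR-486a-5p, where 1.81% of all entries did. No member rose. The paper states that ultracentrifugation may bring down RNA-protein complexes together with sEVs. Fewer vesicles from a cell type, less of a miRNA in each vesicle and less of it in such complexes cannot be told apart in these libraries.

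**Figure D1:**
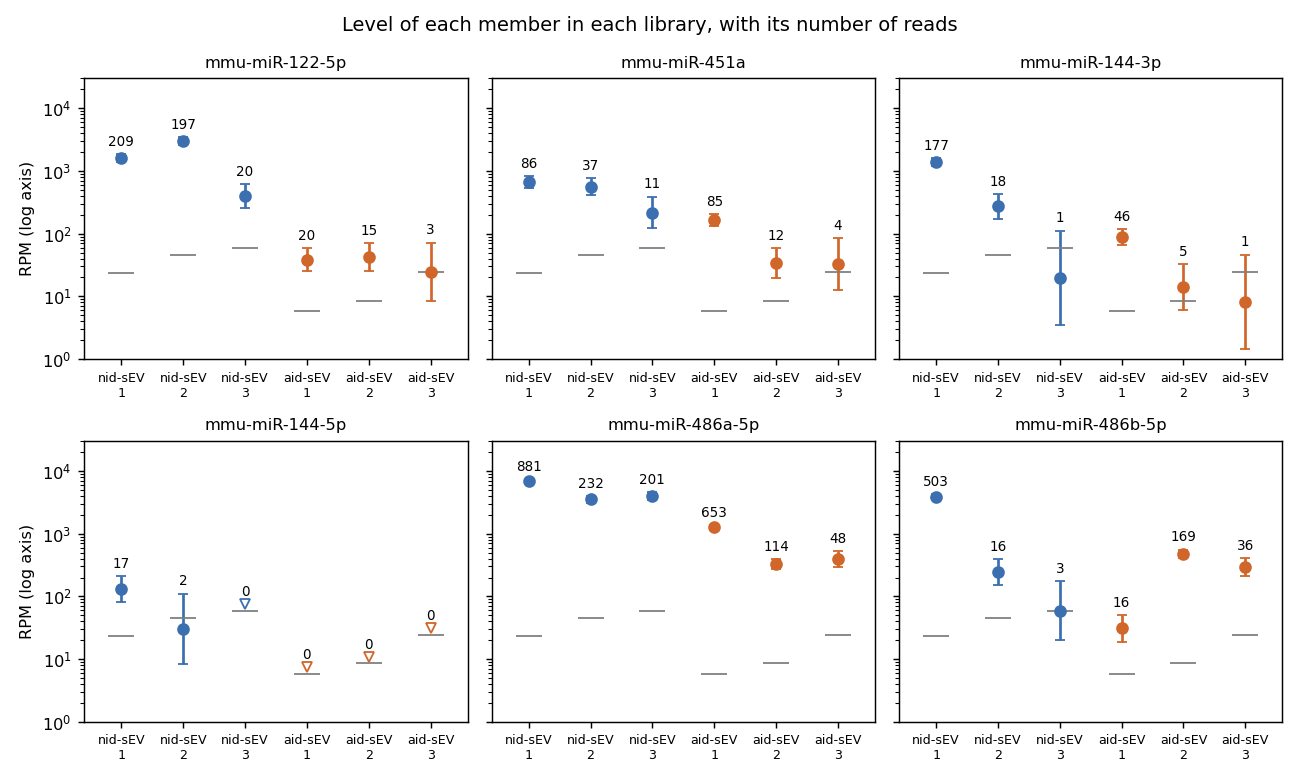
RPM of each member (log axis) in the 3 nid-sEV libraries (blue) and the 3 aid-sEV libraries (orange), with 95% Wilson intervals and the number of reads above each point; grey ticks mark 3 reads and open triangles the upper limit of a library with 0 reads. The points of miR-122-5p, miR-451a and miR-486a-5p do not overlap between the groups, and those of the other members do.

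For the liver miRNA miR-122-5p, nid-sEV replicates 1, 2 and 3 held 209, 197 and 20 reads, which are 1618, 2999.8 and 396 RPM. In aid-sEVs it had 20, 15 and 3 reads, which are 38.5, 42.6 and 24.5 RPM. Every aid-sEV library was thus below every nid-sEV library, and the 95% Wilson interval of nid-sEV replicate 3 (256 to 611 RPM) lay above that of aid-sEV replicate 2 (25.8 to 70.3 RPM). The mean fell from 1671 ± 1303 RPM to 35.2 ± 9.47 RPM (SD, n = 3), a ratio of 47.5. On the log2(RPM + 1) scale the change was -5.14 (SE 0.85, 95% interval -7.20 to -3.08, adjusted p = 0.016 by limma). A two-sided exact permutation test gave p = 0.10, the smallest that 3 against 3 allow. Within nid-sEVs the level spanned the range from 396 to 2999.8 RPM, whereas the aid-sEV libraries differed from each other by less than their counting intervals. Without nid-sEV replicate 2, the highest library, the log2 fold change was -4.51, and without nid-sEV replicate 3, the lowest of its group, it was -5.96. The call held when any one library was left out. In nid-sEVs miR-122-5p ranked 68, 53 and 114 among all entries, and in aid-sEVs 287, 276 and 373.

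The similarly named mmu-miR-122b-3p had 2, 6 and 0 reads in the nid-sEV libraries and 0 in each aid-sEV library. At this depth it gave no call (adjusted p = 0.22 by limma).

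Other miRNAs that liver expresses strongly, but that other tissues share, were set beside miR-122-5p. Of 8 such miRNAs, all listed, 1 rose, 1 fell and 6 gave no call, where 15.6% of all entries rose by limma. The mean of 6 of the 8 was lower in aid-sEVs. The summed level of the 8, 100269 to 161639 RPM in nid-sEVs and 31163 to 68081 RPM in aid-sEVs, was lower in every aid-sEV library. Most of this sum was miR-148a-3p, with 93145 to 144828 RPM in nid-sEVs and 20886 to 56336 RPM in aid-sEVs. Without miR-148a-3p the sums overlapped between the groups. The median log2 fold change of the 8 was -0.12, where the median of all entries was 1.11. For the 6 of them with reads in all 6 libraries it was -0.45, where the median of all such entries was -0.21. The one that rose was miR-192-5p, a miRNA of liver, gut and kidney epithelia, from 1196 ± 774 to 5628 RPM on average, with a log2 fold change of 2.49 (adjusted p = 0.039, SE 0.61). The one that fell was miR-148a-3p, which is also the leading miRNA of the exocrine pancreas, from a mean of 118766 RPM to one of 39079 RPM, at a log2 fold change of -1.69 (adjusted p = 0.037, SE 0.41). The ratio of miR-122-5p to miR-192-5p was 1.34, 1.53 and 0.952 in nid-sEVs and 0.00773, 0.00705 and 0.00418 in aid-sEVs. For miR-22-3p and miR-802-5p, the log2 fold changes were -0.70 and -0.72, neither past the threshold. The seed relative of miR-144-3p, miR-101a-3p, had 541 and 281 RPM on average and a log2 fold change of -0.20 (adjusted p = 0.94).

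For the red-cell miRNA miR-451a, nid-sEV replicates 1, 2 and 3 held 86, 37 and 11 reads, or 666, 563 and 218 RPM. The aid-sEV replicates held 85, 12 and 4 reads, or 164, 34.1 and 32.7 RPM. The groups did not overlap, but aid-sEV replicate 1 came close to nid-sEV replicate 3, and their 95% Wilson intervals, 132 to 202 RPM and 121.6 to 390 RPM, did overlap. The means were 482 ± 235 and 76.8 ± 75.2 RPM (SD, n = 3), a ratio of 6.28. The log2 fold change of -2.91 (SE 0.87, 95% interval -5.02 to -0.80) did not pass the threshold by limma, with an adjusted p of 0.073. Without aid-sEV replicate 1, the highest of its group, the log2 fold change was -3.66 and the adjusted p 0.043. It lay between 0.063 and 0.23 when any other library was left out. With limma refitted on only the 219 entries that had reads in all 6 libraries the adjusted p was 0.0465, and by edgeR's quasi-likelihood test on the recovered reads it was 0.0465 with a filter on low counts and 0.16 without. Of 17 alternatives without a replicate block, 4 called miR-451a, with adjusted p-values from 0.020 to 0.30 over all of them.

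The major arm of miR-144, miR-144-3p, varied widely within both groups. The nid-sEV libraries held 177, 18 and 1 reads of it and the aid-sEV libraries 46, 5 and 1, which are 1370, 274 and 19.8 RPM against 88.6, 14.2 and 8.18 RPM. The groups overlapped, since nid-sEV replicate 3 lay below aid-sEV replicate 1. The log2 fold change was -3.10 (adjusted p = 0.27 by limma, SE 1.72), and its 95% interval ran from -7.25 to 1.06. Without nid-sEV replicate 1 it was -1.70, and without nid-sEV replicate 3 it was -4.73 with an adjusted p of 0.072.

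The minor arm, miR-144-5p, was seen in nid-sEV replicates 1 and 2 alone, with 17 and 2 reads, or 132 and 30.5 RPM. No read was found in nid-sEV replicate 3 or in the 3 aid-sEV libraries. Against 24.5 RPM, the highest level that 3 reads stand for in an aid-sEV library, the nid-sEV mean of 54.0 RPM is at least 2.202-fold higher. This bound rests on nid-sEV replicate 1, since the mean of the other nid-sEV libraries lies under that level. The change gave no call by limma (adjusted p = 0.22). Without nid-sEV replicate 3 the call was made, with a log2 fold change of -6.01 and an adjusted p of 0.033, whereas without nid-sEV replicate 1 they were -2.49 and 0.32. Leaving out any other library gave adjusted p-values of 0.38 to 0.42. The deepest library of all, aid-sEV replicate 1, held 46 reads of the 3p arm and 0 of the 5p arm.

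For miR-486a-5p, the most abundant member in each group by its mean, the nid-sEV libraries held 881, 232 and 201 reads and the aid-sEV libraries 653, 114 and 48. These are 6821, 3533 and 3978 RPM against 1257, 324 and 393 RPM, so that the groups did not overlap. The mean fell from 4777 ± 1784 to 658 ± 520 RPM (SD, n = 3), a ratio of 7.26, and the log2 fold change was -3.07 (SE 0.63, 95% interval -4.60 to -1.55, adjusted p = 0.025 by limma). This call rested on each of 4 libraries. The adjusted p was 0.074 without nid-sEV replicate 2, 0.054 without nid-sEV replicate 3, 0.083 without aid-sEV replicate 2 and 0.070 without aid-sEV replicate 3. Without aid-sEV replicate 1, the log2 fold change was -3.68.

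The levels of the other copy, miR-486b-5p, overlapped between the groups. They were 3895, 244 and 59.4 RPM in nid-sEVs and 30.8, 479.8 and 294 RPM in aid-sEVs, with a log2 fold change of -1.22 (adjusted p = 0.69 by limma, SE 1.77). Leaving out nid-sEV replicate 1 turned its sign, to 0.44. The share of the reads of both copies that went to miR-486b-5p was 36.3%, 6.45% and 1.47% in nid-sEV replicates 1, 2 and 3, and 2.39%, 59.7% and 42.9% in the aid-sEV replicates. The 95% Wilson intervals of the lowest and the highest share, 0.501% to 4.23% and 53.9% to 65.3%, lay far apart, and high and low shares occurred in both groups.

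With the reads of both copies summed, which removes the effect of their division, miR-486-5p had 10716, 3776 and 4037 RPM in nid-sEVs and 1288, 803 and 687 RPM in aid-sEVs. The groups did not overlap, and the log2 fold change was -2.61 (adjusted p = 0.025 by limma, SE 0.54). The ratio of the means was 6.67.

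**Figure D2:**
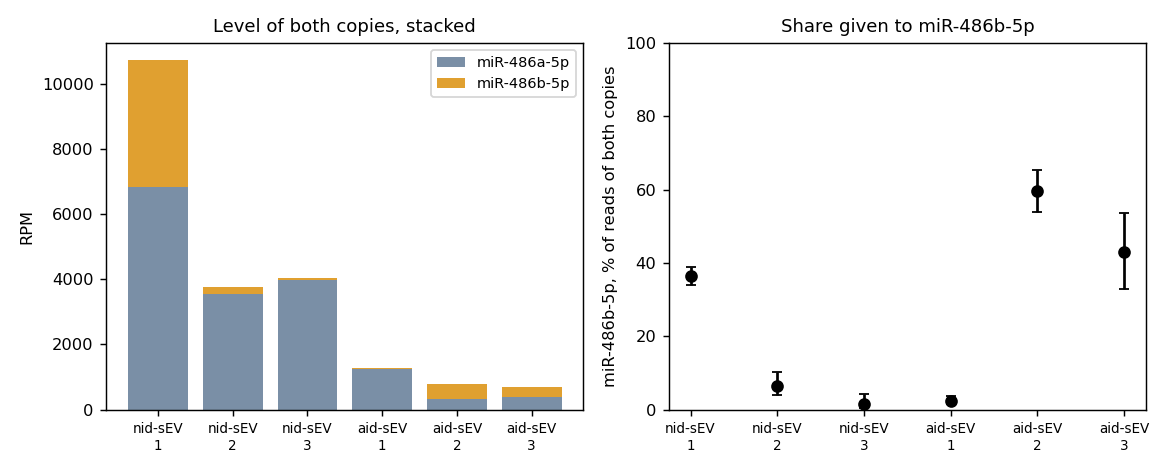
Left, stacked RPM of miR-486a-5p (grey) and miR-486b-5p (yellow) in each library; right, the share of reads of both copies given to miR-486b-5p, in percent, with 95% Wilson intervals. The summed level is lower in each aid-sEV library, at most 1288 RPM against at least 3776 RPM, while the share ranges from 1.47% to 59.7% with no order by group.

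For 3 of the 6 members, the highest aid-sEV library lay below the lowest nid-sEV library, where this held for 7.52% of all entries. Among entries with reads in all 6 libraries, this holds for 3 of 5 members and for 20.1% of entries. With edgeR's quasi-likelihood test on the recovered reads, 3 of the 5 members that passed its filter on low counts fell, where 8.57% of the entries tested did. Without that filter 1 of 6 members fell, miR-122-5p, where 0.975% of entries did. With DESeq2, 5 of 6 members fell, where 11.5% of the entries given an adjusted p did, and only miR-486b-5p was not called. Under RPM divided by TMM factors, which moved the median change of all entries from 1.11 to 1.43 on the log2 scale, the log2 fold changes of all 6 members stayed below 0. The adjusted p of miR-486a-5p was then 0.053, so that it lost its call, while miR-122-5p kept its own with 0.013.

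**Figure D3:**
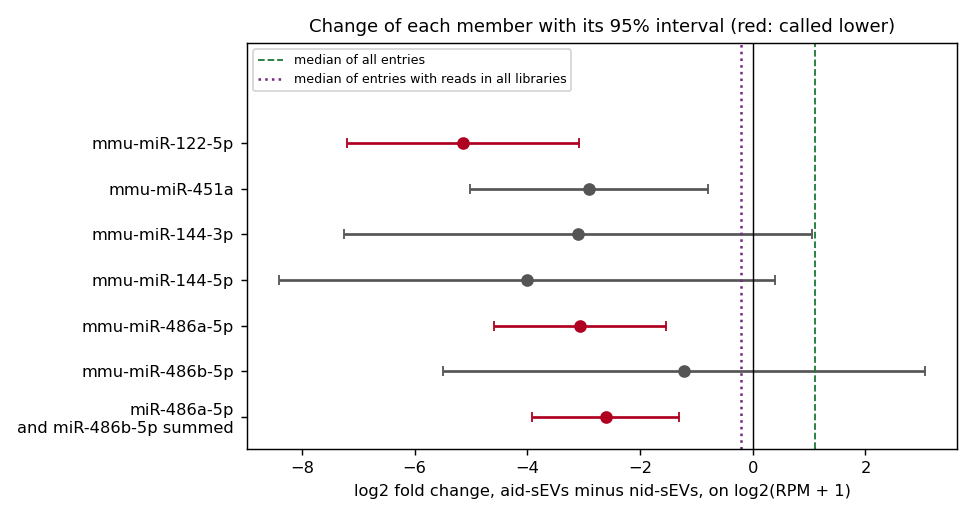
Log2 fold change of aid-sEVs over nid-sEVs on log2(RPM + 1) for each member and for the summed miR-486 copies, with 95% intervals from limma (3 libraries a group). Dashed and dotted lines mark the medians of all entries (1.11) and of the entries with reads in all libraries (-0.21), and the intervals of miR-122-5p, miR-451a, miR-486a-5p and the summed copies lie below both.

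The order of the levels changed between the groups. By mean RPM in nid-sEVs, miR-486a-5p came ahead of miR-122-5p (1671 ± 1303), miR-486b-5p (1399 ± 2163), miR-144-3p (555 ± 718) and miR-451a (482 ± 235). In aid-sEVs miR-486a-5p again led, followed by miR-486b-5p (268 ± 226), miR-451a (76.8 ± 75.2), miR-144-3p (37.0 ± 44.8) and miR-122-5p (35.2 ± 9.47), with miR-144-5p last in both groups. Neighbours in these orders differed by less than the larger of their SDs, except for miR-486a-5p over miR-122-5p in nid-sEVs and for the step down to miR-144-5p in both groups. Reads of different miRNAs also differ in how well they are ligated, so that the order is one of reads.

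Ratios of 2 members within a library do not depend on the RPM scale. For each read of miR-451a there were 2.43, 5.32 and 1.82 reads of miR-122-5p in nid-sEVs and 0.235, 1.25 and 0.750 in aid-sEVs, so that the ratio was lower in every aid-sEV library. It was also lower in every aid-sEV library against the summed miR-486 copies, with 0.151, 0.794 and 0.0980 in nid-sEVs and 0.0299, 0.0530 and 0.0357 in aid-sEVs. Against miR-144-3p, against miR-486a-5p alone and against miR-486b-5p alone, the ratios that follow from the reads and RPM given above overlapped between the groups. Each of the differences against miR-451a and the summed copies had an exact permutation p of 0.10 (two-sided, the smallest possible) and 0.16 after Benjamini-Hochberg adjustment over the 8 ratios computed.

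Among the red-cell members the ratios overlapped between the groups. For each read of the summed miR-486 copies there were 0.0621, 0.149 and 0.0539 reads of miR-451a in nid-sEVs and 0.127, 0.0424 and 0.0476 in aid-sEVs, with an exact permutation p of 0.50. That of miR-144-3p to miR-451a, which share a precursor, was 2.06, 0.486 and 0.0909 in nid-sEVs and 0.541, 0.417 and 0.250 in aid-sEVs (exact permutation p = 0.90). On the log2 scale the miR-451a and miR-486a-5p profiles over the 6 libraries, each centred on its mean, differed by a root mean square of 0.49, the smallest distance between any 2 members with reads in all libraries. That of miR-122-5p to miR-451a was 1.398, and that of the 2 miR-486 copies was 2.54. These distances are descriptions over 6 libraries, and those of either miR-486 copy depend on how reads were divided between the copies.

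**Figure D4:**
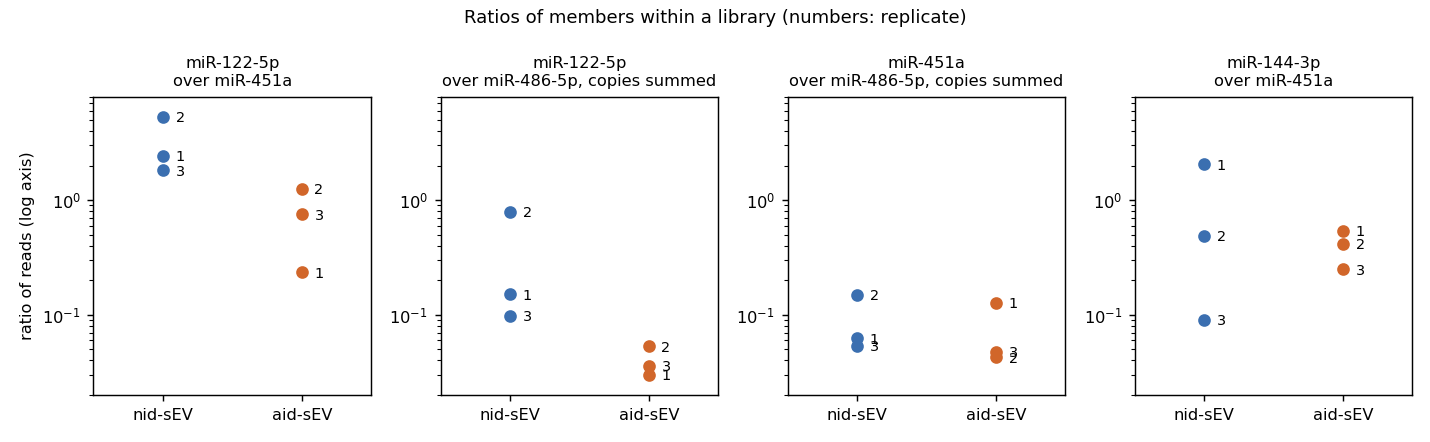
Ratio of the reads of 2 members within each library (log axis), with the 3 nid-sEV libraries in blue and the 3 aid-sEV libraries in orange and the replicate number beside each point. The ratios of miR-122-5p to miR-451a and to the summed miR-486 copies are lower in every aid-sEV library, and the ratios among red-cell members overlap.

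The members were also set against miR-375-3p, the most abundant miRNA of β cells, to read them against islet reads. Per 1000 reads of miR-375-3p, there were 28.6, 19.95 and 1.14 reads of miR-122-5p in nid-sEVs and 0.235, 0.274 and 0.180 in aid-sEVs. On the same scale miR-451a had 11.8, 3.75 and 0.628 in nid-sEVs and 1.0005, 0.219 and 0.240 in aid-sEVs, so that its groups overlapped. The summed miR-486 copies had 189, 25.1 and 11.7 in nid-sEVs and 7.87, 5.16 and 5.04 in aid-sEVs, without overlap. The level of miR-375-3p itself was 56584, 150356 and 346480 RPM in nid-sEV replicates 1, 2 and 3, so the library with the highest ratios had the least miR-375-3p, and the part of this in the ratios was not tested.

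In libraries of similar depth, nid-sEV replicate 1 with 129152 reads and aid-sEV replicate 3 with 122266 reads, the reads themselves can be compared. They held 209 and 3 reads of miR-122-5p, 86 and 4 of miR-451a, and 177 and 1 of miR-144-3p. For miR-486a-5p they held 881 and 48 reads, and for miR-486b-5p 503 and 36. Of the nid-sEV libraries, replicate 1 was the highest for all 5 red-cell members, whereas miR-122-5p was highest in replicate 2. Of the aid-sEV libraries, replicate 1 was the highest for miR-451a, miR-144-3p and miR-486a-5p and the lowest for miR-486b-5p. The aid-sEV library of the pair above, replicate 3, was the lowest of its group for miR-122-5p, miR-451a, miR-144-3p and the summed miR-486 copies. Summed over the red-cell members, the levels were 12884, 4644 and 4274 RPM in nid-sEVs and 1540, 852 and 728 RPM in aid-sEVs. Without the miR-486 copies the sums were 2168, 868 and 237 RPM against 252, 48.3 and 40.9 RPM, and the groups then overlapped. The log2 ratio of the group means of the red-cell sum was -2.81, and -2.10 without nid-sEV replicate 1.

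Other miRNAs abundant in red blood cells, but shared with many cells, were set beside the members. Of 14, all listed, 1 rose, 0 fell and 13 gave no call, with a median log2 fold change of 0.84. Over all entries 15.6% rose, and the median was 1.11. For the 7 of the list with reads in all 6 libraries the median was 1.20, where that of all such entries was -0.21. The summed level of the 14 was 8212 to 27100 RPM in nid-sEVs and 30513 to 48125 RPM in aid-sEVs, without overlap. Most of this sum was miR-191-5p, with 5897 to 18312 RPM in nid-sEVs and 21810 to 37288 RPM in aid-sEVs. Without miR-191-5p the sums overlapped between the groups. The one that rose was miR-484, with a log2 fold change of 2.21 (adjusted p = 0.024 by limma, SE 0.44). The most abundant of them, miR-191-5p, had 10826 and 30646 RPM on average, without a call (adjusted p = 0.070). For miR-16-5p, the levels were 1936, 411 and 336 RPM in nid-sEVs and 514, 585 and 826 RPM in aid-sEVs, with a log2 fold change of -0.037. The red-cell members with reads in all libraries had log2 fold changes of -2.91 (miR-451a), -3.10 (miR-144-3p), -3.07 (miR-486a-5p) and -1.22 (miR-486b-5p). Of the shared list, 7 miRNAs had reads in all libraries, and the lowest of these was miR-92a-3p at -0.91. Of the others, miR-363-3p was at -1.37 (adjusted p = 0.73 by limma) and miR-17-5p at -3.98 (adjusted p = 0.22), with a mean of 50.9 RPM in nid-sEVs and 0 in the 3 aid-sEV libraries.

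**Figure D5:**
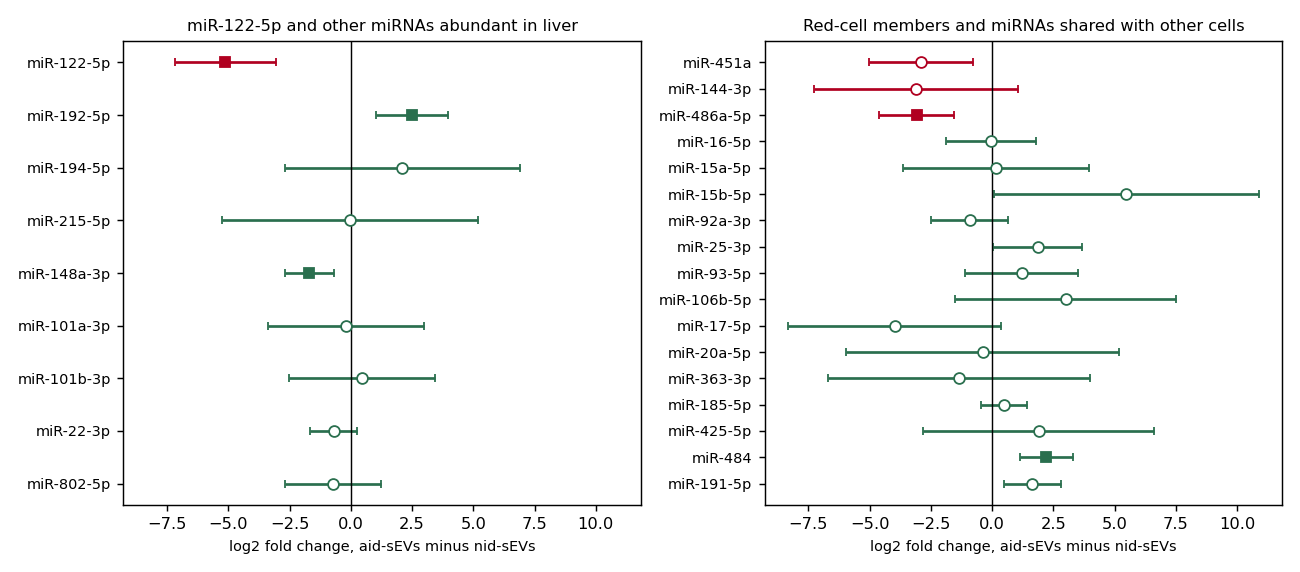
Log2 fold change of aid-sEVs over nid-sEVs on log2(RPM + 1), with 95% limma intervals, for members (red) and for miRNAs that liver or red blood cells share with other tissues (green); filled squares passed the threshold. On the left miR-122-5p is at -5.14 while miR-192-5p is at 2.49, and on the right the red-cell members lie below 0 while the shared miRNAs run from miR-17-5p at -3.98 to miR-15b-5p at 5.47.

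Markers of other cells were set beside the members, and their part in these results was not tested. Of 8 white blood cell and platelet markers, 7 were listed and 1 was called lower, where 1.81% of all entries were. It was the lymphocyte miRNA miR-150-5p, from 163, 76.1 and 416 RPM to 21.2, 17.0 and 16.4 RPM (log2 fold change -3.19, adjusted p = 0.046 by limma). The mean of 6 of the 7 was lower in aid-sEVs. The summed level of the 7 ran from 3107 to 6106 RPM in nid-sEVs and from 1879 to 3165 RPM in aid-sEVs, mostly from miR-146a-5p and miR-342-3p. These 2 went opposite ways without a call, at log2 fold changes of -1.55 (miR-146a-5p) and 0.81 (miR-342-3p). The myeloid miRNA miR-223-3p had at most 31.0 RPM in any library and was at 0 in nid-sEV replicate 3 and in aid-sEV replicates 2 and 3. Of 6 exocrine pancreas markers 5 were listed, none passed the threshold, and their sum ran from 2533 to 9067 RPM in nid-sEVs and from 698 to 3420 RPM in aid-sEVs. The mean of 4 of the 5 was lower in aid-sEVs. Their median log2 fold change was -1.33, where the median of all entries was 1.11. The exocrine miRNA miR-148a-3p, called lower above, was not on this list.

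Muscle also makes miR-486. Of 7 muscle markers 3 were listed, with sums of 240, 152 and 0 RPM in nid-sEVs and between 11.6 and 28.4 RPM in aid-sEVs, and none was called. The 0 is from the shallowest library, where 3 reads stand for 59.4 RPM. The part of muscle in the level of miR-486 was not tested. Of 5 islet endocrine markers, 2 rose and 0 fell, where 15.6% of all entries rose. The risers were miR-182-5p and miR-183-5p, at log2 fold changes of 3.47 and 3.05. The change of miR-375-3p was 0.079 (adjusted p = 0.95 by limma), and those of miR-7a-5p and miR-184-3p were -0.14 and -0.64, without a call.

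The profiles most like those of the members were sought among 173 other named miRNAs with reads in all libraries, by the root mean square difference of centred log2(RPM + 1) values over the 6 libraries. For miR-451a and for miR-486a-5p, the closest were miR-199a-5p, with differences of 0.77 and 0.87, and miR-145a-5p, with 0.96 and 0.89, where the medians over all candidates were 1.92 and 1.89. Both are miRNAs of mesenchymal and smooth muscle cells. Next came miR-200b-3p, an epithelial miRNA, at 0.98 for miR-451a, and miR-150-5p at 0.89 for miR-486a-5p. The 2 members were closer to each other than to any of these. For miR-144-3p the closest were miR-199b-5p at 1.16, miR-199a-5p at 1.37 and miR-216a-5p, a miRNA of the exocrine pancreas, at 1.45.

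The profile nearest to miR-122-5p was miR-199b-5p at 1.29, with 604, 107 and 39.6 RPM in nid-sEVs and 13.5, 14.2 and 8.18 RPM in aid-sEVs, followed by miR-351-5p at 1.45 and miR-5126 at 1.71. None of these 3 passed the threshold by limma, with adjusted p-values of 0.093, 0.14 and 0.072.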

How the data were processed

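Small RNA libraries of sEVs were grouped by their titles into nid-sEVs (NCD) and aid-sEVs (HFD). A company processed the reads; the submitters' notes name fastp 0.23.0, HISAT2 2.2.1 and GRCm38, and the miRNA reference and counting are not given in the sources used here. The authors deposited the levels as RPM, with their own fold changes, p-values and false discovery rates, which were not used. Listed entries had reads in at least 2 libraries. RPM values divided by the smallest value above 0 gave whole reads (within 0.01) for 100% of values.

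Groups were compared with limma 3.58.1 (trend) in R 4.3.3 on log2(RPM + 1) over all 718 entries with Benjamini-Hochberg adjustment, so folds of entries at low RPM depend on the added 1. Calls needed a log2 fold change beyond 1 in either direction together with an adjusted p below 0.05. The edgeR 4.0.16 and DESeq2 1.42.0 tests of the recovered reads, other pseudocounts, filters and scalings, thinning, a replicate block and leaving out each library were alternatives. Scripts were checked on simulated data. Wilson intervals and the floor of 3 reads cover counting error only. Members, marker lists and tests were chosen with earlier results of these data known. Named miRNAs were the members, the marker lists, the 3 nearest profiles of 4 members and miR-375-3p. Mature sequences were matched for 3 of the 6 members in the RefSeq table used here.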

Additional observations from a re-analysis of the deposited data

How the results depend on the processing

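In 17 alternatives without a block, the log2 fold change of miR-122-5p ran from -7.00 to -4.51 and kept its call in 16. After thinning every library to the smallest it was -7.00 (adjusted p = 0.078), with few reads left in aid-sEVs. That of miR-486a-5p lost its call with TMM scaling (-2.58), after thinning (-3.33) and with edgeR's quasi-likelihood test without a filter (-2.38), and ran from -3.68 to -2.70 when 1 library was left out. The miR-451a change gave no call in 13 of 17 alternatives (adjusted p up to 0.30, after thinning). Calls were gained by miR-451a over entries with reads in all libraries (-2.91), with edgeR's filtered test (-2.71) and with DESeq2 (-2.54) and without aid-sEV replicate 1, with a range from -3.66 to -2.52 when 1 library was left out, and by miR-144-3p with DESeq2 (-3.87). That of miR-486b-5p ran from -2.56 to 0.444 when 1 library was left out, above 0 without nid-sEV replicate 1, the only reversal. The cause of these changes was not tested.

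Labels share replicate numbers, but same-numbered libraries did not deviate together (correlations of -0.054, 0.13 and -0.11). With the replicate block 0 entries were called in either direction by limma, 148 rose and 39 fell at an unadjusted p under 0.05, and miR-122-5p (-5.14, adjusted p = 0.070) and miR-486a-5p (-3.07, adjusted p = 0.073) lost their calls.

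Over all entries, 112 were called up and 13 down. Up and down calls were 62 and 9 with a pseudocount of 10, 69 and 9 with a mean RPM of at least 10, 23 and 15 over entries with reads in all libraries, 54 and 3 after thinning, 48 and 21 with edgeR's filtered test, 56 and 7 without its filter, 65 and 50 with DESeq2, 110 and 8 with a pseudocount of 0.1 and 124 and 3 with TMM scaling. Leaving out 1 library gave 33 to 150 up calls and 1 to 26 down calls, both lowest without nid-sEV replicate 2 and highest without nid-sEV replicate 1. The shallow nid-sEV libraries limit levels under 59.4 RPM.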
